A study of Mus musculus with 536 samples.

Results

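The genes described here encode the receptors for 2 myeloid growth factors: Csf3r, the receptor for granulocyte colony-stimulating factor (GCSF), and Csf2ra and Csf2rb, the subunits of the receptor for granulocyte-macrophage colony-stimulating factor (GM-CSF). They were taken by symbol from the deposited array table, with the probe set of highest mean over all arrays standing for a gene that had several. They are 3 of the 12393 genes measured. Each was followed in the peripheral blood of 534 mice over every radiation dose, time and agent of the study. Levels are log2 array signals, so a difference of 1 is a doubling of signal.

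Mice were C57BL/6, 10 to 12 weeks old, and received total body irradiation from a Cs137 source at 480 cGy per minute, or no dose, before blood was drawn once by cardiac puncture at death. The mice fell into 4 sets. In the dose-time set, 240 mice without an agent received a dose of 100, 200 or 300 cGy, of 450 or 600 cGy, of 800 or 1050 cGy, or none, and were bled at 6, 24, 48, 72, 120 or 168 hr, with 5 mice in each of 48 groups. In the sex-treatment set, 115 male and 111 female mice had GCSF, LPS (lipopolysaccharide, a bacterial cell wall component) or no agent, with 200, 300 or 600 cGy or no dose, at 6 or 24 hr, in 48 groups of 3 to 5. The small treatment set held 50 mice with GCSF, LPS or no agent and 150 or 600 cGy or no dose at 6 hr, in 9 groups of 5 or 6. The small 7 day set held 10 mice at 168 hr after 150 cGy, 3 undosed mice at 168 hr, 3 at 6 hr and 2 at 24 hr. The labels give sex in the sex-treatment set alone, and do not give the amount of GCSF or LPS or when it was given. Each mouse gave 1 blood sample, and p-values measure the spread between mice.

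GCSF binds Csf3r, which pairs with itself on neutrophils and their precursors. Its signal drives the production of neutrophils and their release from the marrow. GM-CSF first binds Csf2ra, the alpha chain that recognises it, and the complex then takes in Csf2rb, the common beta chain, which carries the signal through the kinase Jak2 to Stat5. Csf2rb also serves the receptors for interleukin 3 and interleukin 5, each with its own alpha chain, Il3ra or Il5ra. Mice have a second beta chain, Csf2rb2, which serves interleukin 3 alone. In blood, Csf3r is known mainly from neutrophils and monocytes, and the GM-CSF receptor chains from neutrophils, monocytes, macrophages and eosinophils. The blood was a mixture of cells, so fewer cells of a type and less RNA per cell cannot be told apart in any result below.

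Each member lies on its own chromosome. Positions are those of RefSeq on the mouse build GRCm38.p6. Csf3r lies at chr4:126023441-126044975 and was read by 1 probe set. Csf2ra, at chr19:61217191-61228461, had 2 probe sets, and the brighter one (mean 8.28) stands for it. The dimmer one (mean 5.58) did not follow it at all times: its 600 minus 0 cGy difference was 0.32 at 6 hr but fell by 0.31 at 72 hr and by 0.35 at 120 hr, where the brighter one gave 0.88, 1.99 and 1.02. Csf2rb lies at chr15:78325800-78351001, beside its near-identical copy Csf2rb2 at chr15:78282507-78305721. A further probe set is annotated to both copies and was not used for either. Its 600 minus 0 cGy difference was 1.01 at 6 hr, 1.04 at 48 hr and 1.06 at 72 hr, against 1.91, 1.77 and 1.69 for the probe set of Csf2rb. At 24 and 120 hr it was 0.31 and 0.83, against 0.33 and 1.05, and at 168 hr it was the larger, 1.11 against 0.63. How much of the Csf2rb signal comes from its copy is uncertain and was not tested.

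The promoters of Csf3r and Csf2ra are shown because the levels of these genes are compared below with myeloid transcription factors. Each stretch is that of the RefSeq promoter table on GRCm38.p6, which takes 250 bases before and 50 after the start it lists for a gene, read 5′ to 3′ on the gene's strand. That of Csf3r lies at chr4:126024409-126024708 on the plus strand and that of Csf2ra at chr19:61228369-61228668 on the minus strand, and 2 of the 3 members had an entry. The start so listed is not the outer end of the gene interval given above: the Csf3r stretch lies inside that interval. Capitals mark GAGGAA, a sequence of the type bound by PU.1 (the product of Spi1), and GCAAT, a C/EBP half-site, both searched on both strands.
Csf3r: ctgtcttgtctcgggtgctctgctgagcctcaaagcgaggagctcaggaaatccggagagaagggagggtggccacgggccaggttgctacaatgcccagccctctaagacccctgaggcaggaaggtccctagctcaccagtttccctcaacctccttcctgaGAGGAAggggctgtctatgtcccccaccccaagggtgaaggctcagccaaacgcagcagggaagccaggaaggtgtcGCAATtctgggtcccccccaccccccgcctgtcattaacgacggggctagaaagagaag
Csf2ra: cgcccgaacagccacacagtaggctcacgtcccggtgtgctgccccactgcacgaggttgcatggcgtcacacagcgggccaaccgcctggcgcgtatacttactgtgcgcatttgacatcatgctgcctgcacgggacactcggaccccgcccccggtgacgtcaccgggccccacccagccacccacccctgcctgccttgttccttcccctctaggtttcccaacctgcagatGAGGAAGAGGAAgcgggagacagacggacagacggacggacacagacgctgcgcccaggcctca
The Csf3r promoter held 1 match to each motif. The Csf2ra promoter held 2 matches to GAGGAA, side by side, and 0 to GCAAT. Over 32851 promoters of the same length, 28.3% held GAGGAA, 26.4% held GCAAT and 7.77% held both. The motifs do not overlap each other in these stretches, and a match is a description of the letters only.

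Some facts of the arrays touch all results. Array medians ran from 5.61 to 5.93, and the number of arrays limits the precision. The labelled tissue was whole blood, yet Alb (albumin, made in the liver) was at 10 or more in 203 of the 534 mice. In the dose-time set this was so in all 20 mice given 450 cGy or more at 120 hr and in all 20 at 168 hr, against 0 of 5 undosed mice at either time, and at 24, 48 and 72 hr in 3, 3 and 2 of 5 undosed mice. Each of the 5 array runs of that set held 1 mouse of every group. A gene is called where limma's adjusted p, by the Benjamini-Hochberg method over all 12393 genes, was under 0.05, and the percentages of genes called given beside the members count both directions.

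In the dose-time set, where no agent was given, all 3 receptor genes rose with dose at 6, 48 and 72 hr. At 120 and 168 hr the genes parted: the GM-CSF receptor chains still rose with dose, while Csf3r fell with dose at 120 hr and had no called trend at 168 hr. At 24 hr none of the 3 had a called linear trend. The dose trend is a linear slope over the 8 group means of a time, given for each 100 cGy, from limma's fit to all 48 groups.

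**Figure D1:**
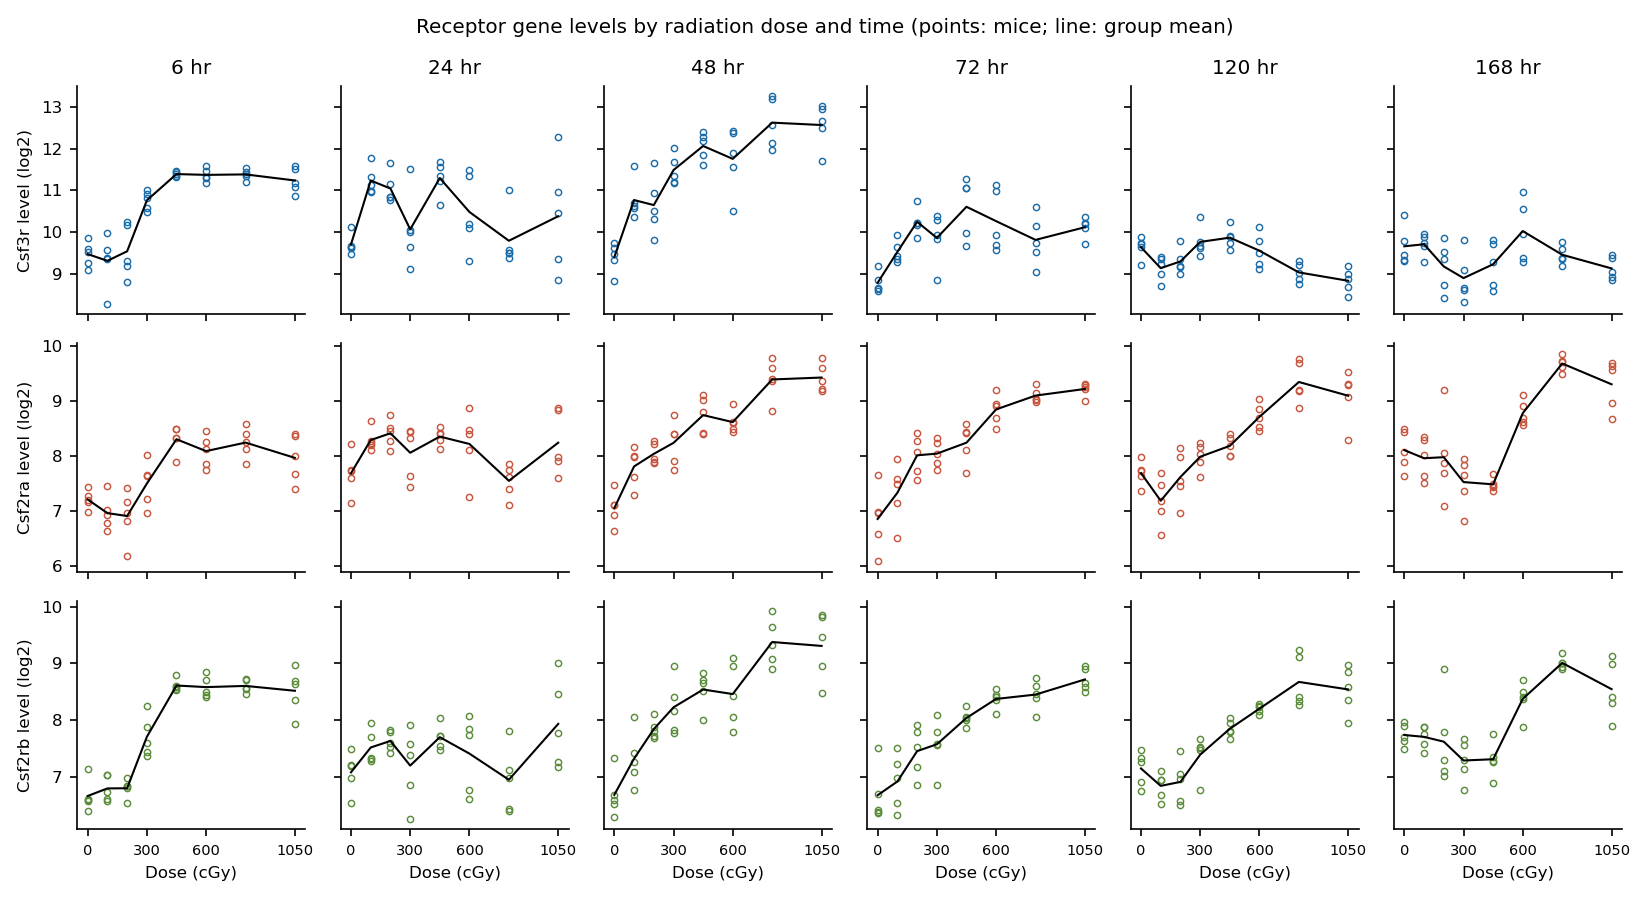
Level (log2 signal, vertical axis) of Csf3r, Csf2ra and Csf2rb by dose in cGy (horizontal axis) at the 6 times of the dose-time set. Points are mice, 5 in each group, and lines join the group means. At 6 hr the curves step up between 200 and 450 cGy. At 48 hr they climb with dose but dip from 450 to 600 cGy. At 120 hr the lines of Csf2ra and Csf2rb climb while that of Csf3r does not.

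At 6 hr Csf3r stood at 11.31, 11.32, 11.47, 11.17 and 11.59 in mice given 600 cGy, against 9.27, 9.87, 9.54, 9.61 and 9.10 in undosed mice. The groups did not overlap, and the 600 cGy mice were 3.72-fold higher (1.89 ± 0.32 on the log2 scale, SE, n = 5 each). The response was a step and not a line: mean Csf3r was 9.48 ± 0.30 without a dose, 9.32 ± 0.63 at 100 cGy, 9.54 ± 0.63 at 200, 10.76 ± 0.23 at 300, 11.39 ± 0.06 at 450, 11.37 ± 0.16 at 600, 11.38 ± 0.12 at 800 and 11.24 ± 0.30 at 1050 cGy (SD, n = 5). The 3 lowest doses overlapped one another, every mouse at 300 cGy stood above every mouse at 200 cGy, those at 450, 600 and 800 cGy stood above every mouse at 300 cGy, and the 4 highest doses overlapped one another. The slope was 0.215 ± 0.024 per 100 cGy (SE, limma adjusted p = 1.10e-14).

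Csf2rb, the signalling chain, gave the same step at 6 hr. It was at 8.85, 8.41, 8.71, 8.45 and 8.50 after 600 cGy, against 6.60, 7.14, 6.61, 6.59 and 6.41 without a dose, again with no overlap and 3.77-fold higher (1.91 ± 0.24, SE). Its mean was 6.67 ± 0.27 without a dose, which the groups at 100 and 200 cGy overlapped, that at 300 cGy was 7.71, and those from 450 to 1050 cGy lay between 8.52 and 8.61. Its slope was 0.213 ± 0.018 (limma adjusted p = 5.80e-22). Csf2ra, the chain that recognises GM-CSF, moved less: it was at 8.11, 7.85, 8.26, 7.74 and 8.46 after 600 cGy, against 7.16, 7.43, 7.27, 6.97 and 7.20 without a dose. That is 1.84-fold (0.88 ± 0.23, SE), and its mean at 300 cGy (7.49 ± 0.41) still overlapped that of undosed mice (7.20 ± 0.17). Its slope of 0.122 ± 0.017 was called too (limma adjusted p = 6.46e-10). So 3 of 3 members were called at 6 hr, beside 34.7% of all genes, and 3 of 3 did not overlap between 600 and 0 cGy, beside 32.8% of all genes.

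At 24 hr the levels did not follow dose in a line. Mean Csf3r was 9.71 ± 0.24 without a dose, 11.24 ± 0.34 at 100 cGy, 11.05 ± 0.37 at 200, 10.07 ± 0.89 at 300, 11.30 ± 0.40 at 450, 10.49 ± 0.91 at 600, 9.80 ± 0.69 at 800 and 10.38 ± 1.34 at 1050 cGy (SD, n = 5). The groups at 100, 200 and 450 cGy lay above every undosed mouse, and those at 300, 600, 800 and 1050 cGy overlapped them. The slopes of Csf3r, Csf2ra and Csf2rb per 100 cGy were -0.03, -0.01 and 0.03 (limma adjusted p = 0.269, 0.836 and 0.232), so 0 of 3 were called, beside 38.7% of all genes. Over 0 to 450 cGy the slope of Csf3r was 0.19 and was called (0.0117), and that of Csf2rb over all doses was called without the 800 cGy mice (0.06, 0.0203) and with the spread of each array as a covariate (0.05, 0.0368). Any difference among the 8 doses was called for all 3 (limma F test, adjusted p = 2.48e-07, 0.00173 and 0.00236), beside 59.4% of all genes. The members differed in which dose stood out. At 100 cGy Csf3r was 2.88-fold higher than without a dose and was called (1.53 ± 0.32), while Csf2ra (0.60 ± 0.23) and Csf2rb (0.44 ± 0.24) were not, beside 6.76% of all genes. At 450 cGy all 3 were called, beside 31.6% of all genes, with Csf3r at 1.59 ± 0.32, Csf2ra at 0.67 ± 0.23 and Csf2rb at 0.62 ± 0.24. At 1050 cGy Csf2rb was called (0.85 ± 0.24, limma adjusted p = 0.00598), and Csf3r (0.67, 0.128) and Csf2ra (0.56, 0.0717) were not, beside 19.9% of all genes. At 600 cGy no member was free of overlap with undosed mice, beside 12.8% of all genes. Lists of other cells also differed between 450 and 800 cGy. The mean of the B cell list was 7.82 at 450 cGy and 8.74 at 800 cGy, both below the 10.74 without a dose. That of the erythroid list was 10.62 at 450 cGy and 12.67 at 800 cGy. The part of these cells in the uneven levels of the receptor genes was not tested.

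At 48 hr Csf3r and Csf2rb reached their highest group means of the dose-time set, both at 800 cGy. Csf3r was at 11.91, 12.38, 12.42, 10.50 and 11.57 after 600 cGy, against 9.48, 9.63, 9.75, 9.34 and 8.83 without a dose. Even 100 cGy, the lowest dose, put every mouse above every undosed one (10.37 to 11.57 against 8.83 to 9.75). From there the means rose unevenly, to 12.62 ± 0.59 at 800 cGy and 12.56 ± 0.52 at 1050 cGy, which overlapped. At 800 cGy the signal of Csf3r was 9.29-fold that of undosed mice (3.22 ± 0.32, SE). Csf2ra was at 8.48, 8.61, 8.94, 8.59 and 8.43 after 600 cGy, against 6.92, 7.11, 7.47, 7.10 and 6.63 without a dose. Csf2rb was at 8.42, 8.95, 9.10, 7.79 and 8.06, against 6.69, 6.60, 7.33, 6.53 and 6.30. Neither overlapped, and the folds at 600 cGy were 2.96 for Csf2ra (1.56 ± 0.23) and 3.41 for Csf2rb (1.77 ± 0.24). The slopes of Csf3r, Csf2ra and Csf2rb were 0.271, 0.211 and 0.239 per 100 cGy (limma adjusted p = 8.24e-22, 1.62e-24 and 9.69e-27), 3 of 3 called beside 47.3% of all genes. Groups did not overlap for 3 of 3, beside 28.9% of all genes.

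At 72 hr the order of the 3 responses changed. Csf2ra had the steepest trend, 0.219 ± 0.017 per 100 cGy (limma adjusted p = 2.03e-26), and was 3.98-fold higher at 600 cGy: 8.69, 8.49, 8.90, 8.94 and 9.20, against 6.98, 6.97, 7.65, 6.58 and 6.08 without a dose. Its means ordered the doses without exception, 6.85, 7.33, 8.01, 8.04, 8.24, 8.84, 9.09 and 9.21 from 0 to 1050 cGy, though each overlapped its neighbour. Csf2rb followed with 0.196 ± 0.018 (limma adjusted p = 1.80e-20) and was at 8.45, 8.11, 8.40, 8.36 and 8.56 after 600 cGy, against 6.39, 6.71, 7.51, 6.43 and 6.38. Csf3r was at 10.99, 9.95, 9.70, 9.58 and 11.12 after 600 cGy, against 8.68, 9.19, 8.59, 8.87 and 8.64, but its trend was shallow, 0.077 ± 0.024 (limma adjusted p = 0.00336), since the means from 200 to 1050 cGy lay between 9.82 and 10.61 in no order of dose. After quantile normalisation between arrays the slope of Csf3r was 0.04 and was not called (adjusted p = 0.216). All 3 were called, beside 53.4% of all genes, and 3 of 3 did not overlap at 600 cGy, beside 34% of all genes.

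At 120 hr Csf2ra and Csf2rb were higher at large doses, and Csf3r was lower at the top dose. At 100 cGy Csf2ra was lower than without a dose and was called (-0.50 ± 0.23, limma adjusted p = 0.0415), while Csf2rb (-0.31, 0.255) and Csf3r (-0.50, 0.151) were not, beside 71.3% of all genes. Csf2ra was at 8.52, 8.44, 8.85, 9.04 and 8.69 after 600 cGy, against 7.36, 7.72, 7.98, 7.63 and 7.73 without a dose. Csf2rb was at 8.16, 8.28, 8.10, 8.25 and 8.24, against 6.76, 6.92, 7.48, 7.27 and 7.33. Both were about doubled with no overlap, 2.03-fold and 2.07-fold, while Csf3r overlapped at 600 cGy (10.12, 9.80, 9.24, 9.51 and 9.13, against 9.21, 9.65, 9.88, 9.75 and 9.73), so 2 of 3 did not overlap, beside 38.8% of all genes. At 1050 cGy Csf3r was at 8.88, 9.18, 8.69, 9.001 and 8.45, below every undosed mouse, and 0.573-fold (-0.80 ± 0.32, limma adjusted p = 0.0277). In the same mice Csf2ra was at 9.30, 9.29, 9.07, 9.53 and 8.28, above every undosed mouse. All 3 members were called between 1050 and 0 cGy, beside 50.1% of all genes. The slopes were -0.053 for Csf3r (limma adjusted p = 0.0308), 0.195 for Csf2ra (1.43e-22) and 0.187 for Csf2rb (2.74e-19), so 1 fell and 2 rose, beside 82.4% of all genes called. Over 0 to 450 cGy the slope of Csf3r was 0.10, with the sign turned. Its fall over all doses was not called with dose on a log2 scale (-0.12 per log2 unit, limma adjusted p = 0.136), with the spread of each array as a covariate (-0.05, 0.138), without mouse 1 of each group (-0.05, 0.0874) or without mouse 3 (-0.05, 0.105). Mice left out in this way are numbered by place in the group, ordered by array run and then by labelled number. In the dose-time set each such step leaves out 1 array run.

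At 168 hr Csf2ra was lower than without a dose at 300 and 450 cGy and higher at 600 cGy. Csf2ra averaged 7.52 ± 0.45 at 300 cGy and 7.48 ± 0.11 at 450 cGy, then 8.77 ± 0.23 at 600, 9.68 ± 0.14 at 800 and 9.30 ± 0.46 at 1050 cGy, against 8.10 ± 0.36 without a dose (SD, n = 5). Its differences from undosed mice were -0.58 at 300 cGy (limma adjusted p = 0.0181), -0.62 at 450 cGy (0.0127) and 0.67 at 600 cGy (0.0115), each called. For Csf2rb the differences of -0.45 at 300 cGy (0.0897) and -0.43 at 450 cGy (0.111) were not called, and that of 0.63 at 600 cGy was (0.027). Csf3r was called at 300 cGy alone of these doses (-0.76, adjusted p = 0.0268), with -0.43 at 450 cGy (0.223) and 0.36 at 600 cGy (0.38). The shares of all genes called were 72.7% at 300 cGy, 68.2% at 450 cGy and 42% at 600 cGy. Over all doses the slopes were 0.171 for Csf2ra (9.68e-19), 0.126 for Csf2rb (1.43e-10) and -0.015 for Csf3r (0.546), 2 of 3 called beside 82.2% of all genes. Over 0 to 450 cGy the trends of Csf2ra and Csf2rb turned to -0.15 and -0.11, both called (0.00251 and 0.0334), and that of Csf3r to -0.14, also called (0.0426). After quantile normalisation the slope of Csf3r over all doses was -0.09 and was called (6.78e-04). At 600 cGy Csf2ra alone did not overlap undosed mice, beside 32.1% of all genes: it was at 8.91, 8.61, 9.10, 8.57 and 8.68, against 7.64, 8.48, 8.44, 8.07 and 7.89.

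The change of the dose trend over time was itself tested. The slopes differed between the 6 times for Csf3r (limma F = 33.5, adjusted p = 1.11e-23), Csf2ra (F = 24.8, 1.36e-18) and Csf2rb (F = 18.4, 1.92e-14), beside 92.3% of all genes called. Compared with 6 hr, the slope of Csf3r was lower by 0.247 at 24 hr, 0.138 at 72 hr, 0.268 at 120 hr and 0.230 at 168 hr, each called, and its rise of 0.056 at 48 hr was not (adjusted p = 0.167). The slope of Csf2ra was lower by 0.126 at 24 hr and steeper by 0.089 at 48 hr, 0.098 at 72 hr, 0.073 at 120 hr and 0.050 at 168 hr, each called. The slope of Csf2rb was lower by 0.187 at 24 hr and by 0.087 at 168 hr, and at 48, 72 and 120 hr its differences of 0.026, -0.017 and -0.026 were not called. The shares of all genes whose slope differed from that at 6 hr were 10.3% at 24 hr, 42.9% at 48 hr, 52.6% at 72 hr, 78.8% at 120 hr and 78.7% at 168 hr.

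**Figure D2:**
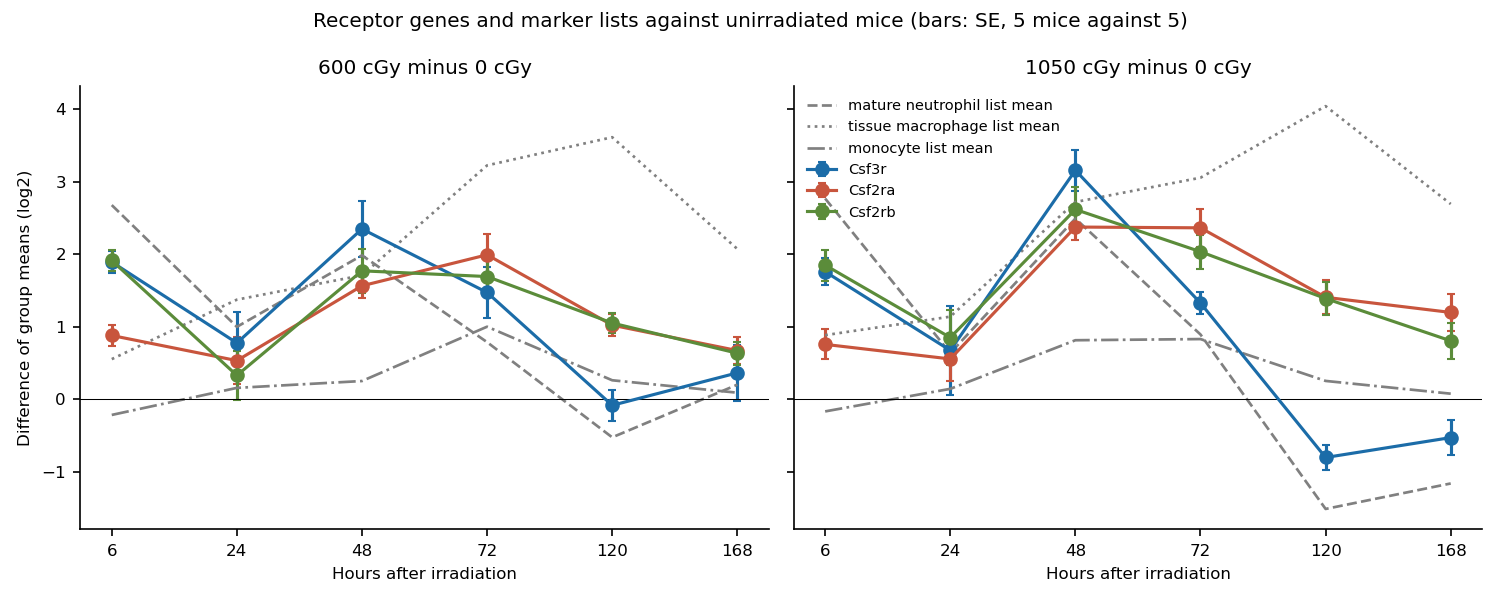
Difference from undosed mice (log2, vertical axis) over time in hours (horizontal axis) after 600 cGy and after 1050 cGy, for the 3 members with SE bars (5 mice against 5) and for the means of the mature neutrophil, tissue macrophage and monocyte lists. At both doses Csf3r is highest at 48 hr and lies below 0 at 120 hr, as the mature neutrophil list does at 120 hr, while Csf2ra and Csf2rb stay above 0 at every time.

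Whether 2 members responded unequally was tested within each array, as the difference of their log2 levels, by an exact permutation test over mice (two-sided, the smallest p for 5 against 5 being 0.00794) or a permutation test for groups of 10, adjusted over 30 tests, of which 8 passed. At 6 hr Csf2ra responded less to 600 cGy than Csf3r, by 1.01 (Csf2ra minus Csf3r -3.29 ± 0.15 after 600 cGy and -2.27 ± 0.28 without a dose, SD, n = 5 each, exact adjusted p = 0.034). It also responded less than Csf2rb, its partner chain, whose difference from Csf2ra was greater by 1.03 (exact adjusted p = 0.034). Csf2rb and Csf3r moved by amounts that differed by 0.02 (exact adjusted p = 0.898), but by 0.48 after quantile normalisation, which passed (0.0265). At 120 hr the pairing was different: Csf2rb exceeded Csf3r in its response by 1.14 and Csf2ra exceeded Csf3r by 1.11 (both exact adjusted p = 0.034), while Csf2rb and Csf2ra differed by 0.03 (exact adjusted p = 0.898). No pair passed at 24, 48, 72 or 168 hr, with differences between -0.78 and 0.52. With both probe sets of Csf2ra averaged, the difference of Csf2ra from Csf3r at 120 hr was 0.42 and no longer passed (exact adjusted p = 0.238), and those of Csf2rb from Csf2ra at 48, 72, 120 and 168 hr were 1.15, 0.85, 0.72 and 0.39 and passed.

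Markers of the cells that carry these receptors moved with them at some times and not at others. The mature neutrophil list (11 of 14 genes measured) had a mean of 10.35 (10.11 to 10.61 over mice) after 600 cGy at 6 hr, against 7.67 (7.35 to 7.98) without a dose. All 11 of its genes rose with dose at 6 hr, with a median 600 minus 0 cGy difference of 2.52 against 0.13 over all genes. At 48 hr 9 were higher and 1 was lower with dose (median 2.73 against -0.07), at 72 hr 8 higher and 2 lower, at 120 hr 3 higher and 7 lower, and at 168 hr 4 higher and 6 lower. Of all genes, 16.2%, 18.9%, 24%, 26.3%, 35.4% and 35.5% rose with dose at 6, 24, 48, 72, 120 and 168 hr. At the same times 18.5%, 19.8%, 23.3%, 27.1%, 47% and 46.6% of all genes fell. S100a8, the abundant neutrophil calcium-binding protein, was at 6.35 after 1050 cGy at 120 hr, against 12.77 without a dose. The tissue macrophage list (9 of 10 measured) ran the other way in time: 0 of 9 were called at 6 hr, 2 rose at 24 hr, 8 at 48 and at 72 hr, and 9 at 120 and at 168 hr. The tissue macrophage mean was 10.23 (9.51 to 10.68) after 600 cGy at 120 hr, against 6.61 (5.74 to 7.13) without a dose. Of the monocyte list, measured in full, 2 of 11 rose and 4 fell at 6 hr, 6 rose and 3 fell at both 48 and 72 hr, and 5 rose and 5 fell at 168 hr. The hepatocyte list had 0 of 10 called up to 72 hr and 10 of 10 risen at 120 and 168 hr, when the hepatocyte mean was 12.69 and 13.44 after 600 cGy, against 5.34 and 5.40 without a dose. The part of these markers in the results for the receptors was not tested.

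The distance of each member from the neutrophil markers changed over time. The level of Csf3r minus the mature neutrophil mean was lower by 0.78 after 600 cGy than without a dose at 6 hr and higher by 0.36 at 48 hr, 0.69 at 72 hr and 0.44 at 120 hr. The same quantity for Csf2ra was lower by 1.80 at 6 hr and higher by 1.55 at 120 hr, and for Csf2rb lower by 0.76 and higher by 1.58.

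The genes most like each member over the 48 group means of the dose-time set were ranked by Pearson's r, as a description of groups that share arrays and doses. Csf3r was most like Gsdme (0.97), Asprv1 (0.94), Cebpd (0.94), Cxcr2 (0.94), the neutrophil chemokine receptor, and Fpr2 (0.94), a formyl peptide receptor. Csf2ra was most like Slc11a1 (0.98), the metal transporter of phagosomes, Adssl1 (0.96), Ampd3 (0.96), Csf2rb2 (0.95) and Gpr35 (0.95). Csf2rb was most like Apobr (0.93), Fes (0.93), a tyrosine kinase of myeloid cells, Adam8 (0.93), Pla2g7 (0.92) and Pilra (0.92). Among themselves the GM-CSF receptor chains correlated at 0.89, Csf3r and Csf2rb at 0.55, and Csf3r and Csf2ra at 0.36. With the mature neutrophil list r was 0.91 for Csf3r, 0.31 for Csf2rb and 0.04 for Csf2ra, and with the tissue macrophage list it was 0.00 for Csf3r on rounding, 0.57 for Csf2rb and 0.80 for Csf2ra. The macrophage list did not stand alone. For Csf2ra r was 0.70 with the monocyte list, 0.63 with the hepatocyte list, 0.61 with Alb and -0.80 with the erythroid list. For Csf2rb r was -0.66 with the erythroid list, -0.64 with the T cell list, -0.59 with the B cell list and 0.42 with the hepatocyte list.

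The calls for the rest of the pathway are those of the dose trend, with 600 minus 0 cGy differences as sizes. Of the 9 ligands and sister receptors, all measured, those that rose numbered 3 at 6 hr, 2 at 24 hr, 4 at 48 hr and 3 at each later time, and those that fell numbered 1 at 6 hr, 0 at 24 hr, 1 at 48 hr, 1 at 72 hr, 4 at 120 hr and 5 at 168 hr. The shares of all genes risen and fallen at each time are those given for the marker lists above. Their median difference was 0.37 at 6 hr, against 0.13 over all genes. It was 0.20 at 24 hr (0.07 over all genes), -0.11 at 48 hr (-0.07) and 0.23 at 72 hr (-0.10). At 120 hr the median was -0.15 (-0.04) and at 168 hr 0.005 (-0.07). At 6 hr the ligand genes Csf3 and Csf2 had no called dose trend, though Csf3 was higher at 600 than at 0 cGy (0.45 ± 0.13, limma adjusted p = 0.0023), beside 49% of all genes, and at 120 hr both fell with dose, by 0.03 and 0.04 per 100 cGy (limma adjusted p = 0.00457 and 6.58e-05). Csf2rb2, the second beta chain, rose at 6, 48, 72, 120 and 168 hr, with 600 minus 0 cGy differences of 0.78, 1.51, 1.68, 0.76 and 0.58, and was not called at 24 hr. Il3ra, the interleukin 3 alpha chain, had no called dose trend at 6 hr and rose from 48 hr on, by 0.53 ± 0.16 at 48 hr, 0.87 ± 0.16 at 72 hr and 1.12 ± 0.16 at 120 hr (600 minus 0 cGy, SE). Il5ra, the interleukin 5 alpha chain of eosinophils, fell at 6 hr (-0.67 ± 0.22) and was not called at later times. Csf1r, the receptor for macrophage colony-stimulating factor, rose from 48 hr on, by 1.09 ± 0.29 at 48 hr and 1.77 ± 0.29 at 72 hr. So the receptor chains of the beta family rose together at 48 and 72 hr, apart from Il5ra.

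Of the signal transducers, 14 of 17 were measured. The number risen was 3 at 6 hr, 3 at 24 hr, 12 at 48 hr, 10 at 72 hr, 7 at 120 hr and 3 at 168 hr, and the number fallen 3, 3, 0, 1, 4 and 8. The median difference was -0.28 at 6 hr (0.13 over all genes), 0.53 at 48 hr (-0.07) and 0.89 at 72 hr (-0.10). Stat3, the main transducer of the GCSF receptor, rose by 0.56 ± 0.19 at 6 hr, 1.25 ± 0.19 at 48 hr and 1.42 ± 0.19 at 72 hr (600 minus 0 cGy, SE). Ptpn11, the phosphatase SHP-2, rose by 2.47 ± 0.27 at 48 hr and 3.08 ± 0.27 at 72 hr. Jak1 fell by 0.90 on the log2 scale at 6 hr, and Jak2 fell by 0.85 at 120 hr and by 1.34 at 168 hr.

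Of the 10 induced feedback and survival genes, all measured, 5 were risen and 1 fallen at 6 hr, and 2 risen and 2 fallen at 24 hr. At 48 hr 7 were risen and at 72 hr 5, with 0 fallen at both times. At 120 hr 6 were risen and 2 fallen, and at 168 hr 4 were risen and 4 fallen. The shares of all genes risen and fallen at each time are those given with the marker lists above. They apply as well to the signal transducers and to the myeloid transcription factors below. Socs3, the feedback inhibitor that binds the GCSF receptor, rose by 3.77 ± 0.24 at 6 hr, 1.94 ± 0.24 at 48 hr and 1.58 ± 0.24 at 72 hr. Socs3 differed by 0.53 at 120 hr and 0.68 at 168 hr. Socs2, another feedback inhibitor, rose as well, with 3.00 ± 0.31 at 120 hr and 3.40 ± 0.31 at 168 hr. Of the myeloid transcription factors, 8 of 9 were measured, with 3 risen and 2 fallen at 6 hr and 1 risen and 1 fallen at 24 hr. At 48 and at 72 hr 6 were risen and 1 fallen, at 120 hr 7 risen and 1 fallen, and at 168 hr 5 risen and 1 fallen. Spi1 rose by 0.92 ± 0.23 at 6 hr and 2.42 ± 0.23 at 48 hr. Cebpd rose by 2.58 ± 0.32 at 6 hr, Cebpa by 2.36 ± 0.28 at 120 hr, and Irf8, a factor of B cells, dendritic cells and monocytes, fell by 2.45 at 6 hr.

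In the sex-treatment set some mice went against their labels at 6 hr, which bears on every pooled value at that time. Xist, expressed from the inactive X chromosome, was low (5.54 and 5.84, below a limit of 9.5) in 2 mice labelled female, 1 without dose or agent and 1 without agent at 300 cGy. Cxcl10, a chemokine gene induced by LPS, was at 10.6 in 1 male labelled without agent at 300 cGy and at 5.05 in 1 male labelled LPS at 300 cGy. Ifitm1 separated the agents among males at 0 cGy, at 12.4 to 13.5 with GCSF and 9.92 to 11.1 without agent. Among females at 0 cGy it was at 9.63 to 12.0 in those labelled GCSF and at 9.34 to 12.8, with a median of 12.3, in those labelled without agent. These markers were chosen after their values were seen. No mouse was moved to another group, and values for males alone, or without the 4 mice, are given where they change a call.

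GCSF alone, at 0 cGy and pooled over the sexes, gave no called change in its own receptor at 6 or 24 hr, and at 6 hr the sexes had opposite signs. At 6 hr the differences of Csf3r, Csf2ra and Csf2rb were -0.08 ± 0.28, 0.06 ± 0.25 and 0.23 ± 0.28 (SE, limma adjusted p = 0.999 each). These averages hold values of opposite sign: 0.68, 0.43 and 1.06 in males, and -0.83, -0.31 and -0.59 in the females whose labels are in doubt. The male minus female difference was not called (1.502, 0.745 and 1.646, limma adjusted p = 1, 1 and 0.753, unadjusted p = 0.007216, 0.1357 and 0.00413). In the pooled comparison 0% of all 12393 genes were called by limma, and 283 had an unadjusted p under 0.05. At 24 hr Csf3r was at 10.46, 10.93, 10.64, 10.68 and 10.57 in males with GCSF, against 10.08, 10.38, 10.58, 9.55 and 9.45 in males without. In females it was at 10.28, 10.37, 10.31, 10.46 and 10.78 with GCSF, against 9.70, 9.54, 9.58, 9.29 and 9.51 without. Females did not overlap and males did. The pooled differences were 0.78 ± 0.28 for Csf3r, 0.38 ± 0.25 for Csf2ra and 0.73 ± 0.28 for Csf2rb (limma adjusted p = 0.186, 0.412 and 0.234), 0 of 3 called beside 0.549% of all genes. The calls turned on the groups fitted: with only the groups compared in the fit, the same differences had limma adjusted p = 3.57e-04, 0.0121 and 0.00123. With the spread of each array as a covariate they were 1.04, 0.71 and 1.05 and were called. Within arrays, Csf2ra lagged Csf3r by 0.41 at 24 hr (permutation adjusted p = 0.034) and Csf2rb by 0.36 (0.018). These differences were -0.56 and 0.25 in females alone and -0.50 and 0.38 without the mice whose Alb was 10 or more, where the groups were smaller and they did not pass (exact adjusted p = 0.0952 and 0.127, and 0.195 and 0.0892). In males alone the lag behind Csf3r was -0.25 (0.295). Of the mature neutrophil list 5 of 11 rose at 24 hr with GCSF, and Socs3 rose by 1.13 ± 0.28 (limma adjusted p = 0.0275).

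With LPS alone all 3 receptor genes rose at 24 hr. Csf2rb was at 9.21, 9.55, 9.60, 9.53 and 8.91 in males with LPS, against 7.33, 7.87, 7.53, 7.17 and 6.88 in males without, and at 7.89, 8.88, 8.17 and 7.70 in females with LPS, against 6.91, 7.01, 7.12, 6.25 and 7.09 in females without. Neither sex overlapped. Csf2ra was at 8.98, 9.22, 9.56, 9.68 and 8.55 in males with LPS, against 7.68, 8.08, 7.66, 7.58 and 7.59, and at 8.10, 8.59, 8.44 and 7.91 in females with LPS, against 7.37, 7.09, 7.61, 6.84 and 7.46, also with no overlap. Csf3r was at 11.77, 12.31, 12.46, 11.62 and 11.76 in males with LPS, above all males without. In females with LPS it was at 9.15, 11.47, 9.56 and 9.02, with 2 mice below, 1 within and 1 above the range of those without (9.29 to 9.70). Pooled over the sexes, the folds were 2.18 for Csf3r (1.13 ± 0.28, limma adjusted p = 0.00104), 2.35 for Csf2ra (1.23 ± 0.26, 4.39e-05) and 3.12 for Csf2rb (1.64 ± 0.29, 1.45e-06), 3 of 3 called beside 21.9% of all genes.

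Taken by sex, all 3 were called in males at 24 hr after LPS, with differences of 1.98, 1.48 and 2.00, beside 13.9% of all genes. In females Csf2rb alone was called (1.28, limma adjusted p = 0.0224), with Csf2ra at 0.99 (0.0518) and Csf3r at 0.27 (0.67), beside 16.7% of all genes. These females differed from the males with LPS in other markers. Their Cxcl10 was at 5.97 to 10.33 (median 9.22), against 6.05 to 7.17 in males, and their median Ifitm1 was 11.46, against 13.57. Labels were checked by Cxcl10 at 6 hr alone, and whether those of these females are right was not tested. The male minus female difference of the LPS response was not called for any member (1.70, 0.49 and 0.72, limma adjusted p = 0.1, 0.577 and 0.476), beside 1.65% of all genes. Over both sexes Csf2rb exceeded Csf2ra in its response to LPS by 0.42 (exact adjusted p = 0.0211), with 0.29 in females alone (0.127) and 0.34 without the mice whose Alb was 10 or more (0.0892). All 11 genes of the mature neutrophil list rose, the mature neutrophil mean being 11.28 in males and 10.77 in females with LPS, against 8.14 and 7.86 without. In these mice Csf2rb2 rose by 1.63 ± 0.31, Socs3 by 2.42 ± 0.29 and Cebpb by 1.98 ± 0.24, while Il5ra fell by 1.29.

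At 6 hr LPS alone changed no member past the threshold: Csf3r was at -0.67 ± 0.30, Csf2ra at 0.21 ± 0.27 and Csf2rb at 0.45 ± 0.31 (SE, limma adjusted p = 0.0667, 0.526 and 0.23), beside 35.2% of all genes. Without the 4 mice that went against their labels the difference of Csf3r was -0.81 and was called, and with only the groups compared in the fit it was called too (adjusted p = 0.0243). With the spread of each array as a covariate Csf2ra and Csf2rb were at 0.71 and 0.92 and were called. Csf2rb exceeded Csf3r in its response by 0.94 (exact adjusted p = 0.0374), or by 0.73 without the mice whose Alb was 10 or more (0.195). The mature neutrophil list moved the other way from Csf3r, with 9 of 11 risen and 0 fallen (median 1.06 against 0.06 over all genes). Csf3, the GCSF gene, rose by 1.10 ± 0.19, Il3ra by 0.42 ± 0.12, and Csf1r fell to 0.354-fold. Of the induced feedback and survival genes 7 of 10 rose, among them Socs1 (1.64 ± 0.15) and Cish (0.99 ± 0.13).

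**Figure D3:**
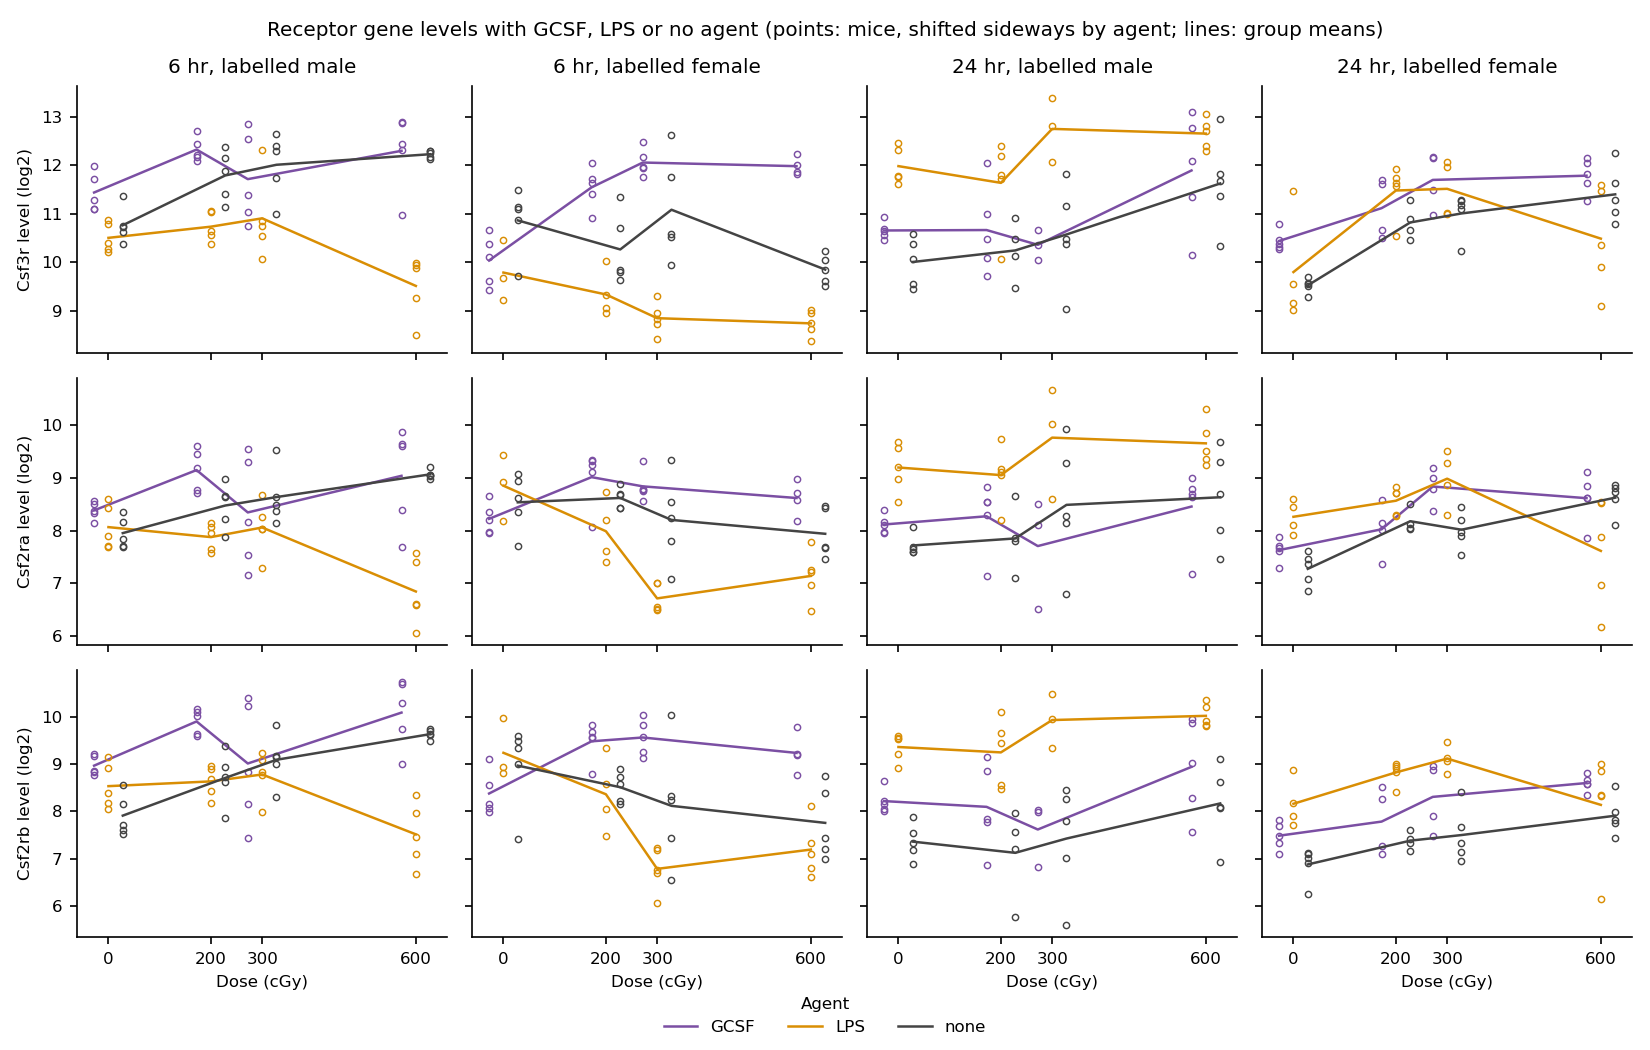
Level (log2 signal, vertical axis) of the 3 members by dose in cGy (horizontal axis) in the sex-treatment set, at 6 and 24 hr in males and females. Points are mice, 3 to 5 in each group, and lines join the means for GCSF, LPS and no agent. At 6 hr the LPS line slopes down with dose, and at 24 hr the lines for GCSF and no agent slope up in both sexes.

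The dose trend depended on the agent. At 24 hr without agent all 3 members rose with dose, with slopes of 0.286 for Csf3r, 0.186 for Csf2ra and 0.159 for Csf2rb per 100 cGy (limma adjusted p = 2.54e-08, 5.18e-05 and 0.00281), 3 of 3 called beside 41.2% of all genes. With GCSF all 3 rose too, at 0.217, 0.109 and 0.157 (4.16e-05, 0.0292 and 0.00448), beside 30.6% of all genes. In males alone the GCSF slopes of Csf2ra and Csf2rb were 0.05 and 0.12 (0.516 and 0.131), and without mouse 3, 4 or 5 of each group that of Csf2ra had an adjusted p between 0.088 and 0.133. With LPS none was called, at 0.108, -0.011 and 0.054 (0.108, 0.877 and 0.455), beside 13% of all genes. The slope with LPS was lower than that without agent by 0.178 for Csf3r and by 0.197 for Csf2ra (limma adjusted p = 0.0416 and 0.00884), while that of Csf2rb, lower by 0.104, was not called (0.353), 2 of 3 beside 16.5% of all genes. The call for Csf3r was lost whichever mouse of each group was left out (adjusted p between 0.065 and 0.155), with only the groups compared in the fit (0.0867) and in either sex alone. That for Csf2ra was lost without mouse 4 (-0.14, 0.159) and in males alone (-0.07, 0.742). The slope with GCSF minus that without was -0.07, -0.08 and 0.00 on rounding, and 0 of 3 were called, beside 0.00807% of all genes.

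At 6 hr the trends with LPS ran downward in all 3 members: -0.176 for Csf3r, -0.248 for Csf2ra and -0.265 for Csf2rb per 100 cGy (limma adjusted p = 0.00318, 2.91e-06 and 1.12e-05), beside 32.2% of all genes. That of Csf3r was not called without mouse 3 of each group (-0.15, 0.0644) or in females alone (-0.18, 0.088). In males at 600 cGy Csf3r was at 9.26, 9.87, 9.95, 9.99 and 8.49 with LPS, against 12.29, 12.17, 12.14, 12.29 and 12.26 without. Csf2ra was at 6.06, 6.60, 7.40, 7.58 and 6.58, against 9.05, 8.98, 9.03, 9.06 and 9.21, and Csf2rb at 6.68, 7.46, 7.97, 8.35 and 7.11, against 9.62, 9.69, 9.49, 9.74 and 9.63. None of the 3 overlapped, and Csf3r was 0.152-fold, Csf2ra 0.214-fold and Csf2rb 0.230-fold (limma adjusted p = 3.93e-09, 6.75e-08 and 5.12e-06), 3 of 3 called beside 62% of all genes. In females at 600 cGy the LPS minus none differences were -1.11, -0.80 and -0.56 and 0 of 3 were called (0.0684, 0.191 and 0.524), beside 6.51% of all genes. At 300 cGy they were -2.24, -1.49 and -1.33 in females, 3 of 3 called beside 15.1% of all genes, and -1.10, -0.58 and -0.31 in males, 0 of 3 called beside 1.06%. At 200 cGy 0 of 3 were called in either sex, with Csf3r at -0.93 in females and -1.06 in males, beside 17.4% and 5.97% of all genes. The mature neutrophil mean in the males at 600 cGy was 9.93 with LPS, against 11.31 without.

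With GCSF at 6 hr Csf3r (0.210) and Csf2rb (0.139) rose with dose and Csf2ra (0.064) was not called (limma adjusted p = 9.15e-05, 0.0117 and 0.183), 2 of 3 beside 52.6% of all genes. In males alone they were 0.117 for Csf3r (0.3) and 0.158 for Csf2rb (0.136), and that of Csf2rb was 0.119 without mouse 1 of each group (0.0553). Without agent the pooled slopes were 0.040, 0.035 and 0.040 and 0 of 3 were called, beside 19.9% of all genes. These pooled slopes average slopes of opposite sign. In males labelled without agent they were 0.230, 0.181 and 0.282 (limma adjusted p = 0.0134, 0.0382 and 0.00145), 3 of 3 called beside 5.51% of all genes. In females so labelled they were -0.149, -0.111 and -0.203 (0.0586, 0.113 and 0.0128), 1 of 3 called beside 32.3% of all genes. The male minus female difference of the slope was 0.378 for Csf3r, 0.293 for Csf2ra and 0.485 for Csf2rb (limma adjusted p = 0.0019, 0.00859 and 1.06e-04), 3 of 3 called beside 10.3% of all genes. The mature neutrophil mean ran the same way: 11.31 in males and 8.80 in females labelled without agent at 600 cGy, against 9.17 and 9.59 at 0 cGy. Whether the labels of these females are right was not tested.

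The slope with LPS minus that without agent at 6 hr was -0.216, -0.283 and -0.304 for Csf3r, Csf2ra and Csf2rb (limma adjusted p = 0.0263, 4.06e-04 and 8.97e-04), 3 of 3 called beside 6.45% of all genes. In males alone it was -0.405, -0.386 and -0.460, and in females, where the trend without agent ran down, -0.027, -0.180 and -0.149. Without mouse 3 of each group the pooled values were -0.16, -0.24 and -0.22 and none was called (limma adjusted p = 0.447, 0.0564 and 0.159), and without mouse 5 that of Csf3r was -0.18 (0.155). Without the mice whose Alb was 10 or more, Csf3r was at -0.17 (0.176) and Csf2rb at -0.23 (0.0519). The slope with GCSF minus that without agent was 0.170, 0.029 and 0.099 and 0 of 3 were called, beside 0.0161% of all genes. These averages too hold opposite signs. In males it was -0.112, -0.099 and -0.125, with no member called. In mice labelled female it was 0.453, 0.156 and 0.323 (limma adjusted p = 8.24e-04, 0.471 and 0.0502), the first called, beside 220 of all 12393 genes.

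The other comparisons of the sexes gave few calls. At 0 cGy without agent the male minus female difference at 6 hr was -0.10 for Csf3r, -0.58 for Csf2ra and -1.06 for Csf2rb, the last called (limma adjusted p = 0.0388), beside 27.8% of all genes. It rests on the females labelled without agent described above, of whom 4 of 5 had Csf2rb above every male of that group (7.52 to 8.55), and was not called without mouse 1, 2, 4 or 5 of each group (adjusted p between 0.063 and 0.151). At 24 hr the differences were 0.48, 0.44 and 0.48 and 0 of 3 were called, beside 0.0726% of all genes. The response to GCSF at 0 cGy did not differ between the sexes past the threshold for any member at 6 hr (beside 0.105% of all genes) or at 24 hr, where limma called 0% of all genes and 166 had an unadjusted p under 0.05. Nor did the response to LPS at 6 hr (beside 1.33%), or the dose trend with GCSF at 6 hr (11.6%), with LPS at 6 hr (8.63%), with GCSF at 24 hr (0.00807%) or with LPS at 24 hr (0.25%). For the dose trend without agent at 24 hr, limma called 0% of all genes, 296 having an unadjusted p under 0.05, and the slopes of Csf3r were 0.279 in males and 0.293 in females.

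The small treatment set repeated the 6 hr comparison with other mice and at 150 and 600 cGy. Without agent at 600 cGy Csf3r was at 12.38, 12.00, 11.98, 11.96 and 12.18, against 10.51, 9.67, 10.31, 9.58, 10.20 and 11.99 in undosed mice. Csf2rb was at 9.78, 9.38, 9.59, 9.32 and 9.39, against 7.66, 7.51, 7.54, 7.34, 7.43 and 9.19. In both, 1 undosed mouse stood with the irradiated ones and the other 5 well below. The differences were 1.72 ± 0.25 for Csf3r, 0.93 ± 0.23 for Csf2ra and 1.72 ± 0.29 for Csf2rb (SE, limma adjusted p = 5.15e-06, 0.00663 and 6.13e-05), 3 of 3 called beside 7.38% of all genes. As in the dose-time set at 6 hr, Csf2ra had the smallest difference. It was 0.40 and not called with its probe sets averaged (0.0623), and missed the threshold without mouse 1, 2 or 4 of each group (adjusted p between 0.054 and 0.0621).

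At 150 cGy Csf3r (1.46 ± 0.24, limma adjusted p = 1.97e-04) and Csf2rb (0.96 ± 0.28, 0.0394) were called and Csf2ra (0.68 ± 0.22, 0.07) was not, 2 of 3 beside 3.83% of all genes. Without the high undosed mouse Csf2ra was called as well (0.82, 0.0107). With only the groups compared in the fit Csf3r and Csf2rb were not called (0.204 and 0.222), nor was Csf2rb without mouse 1, 2, 4 or 5 of each group (adjusted p between 0.109 and 0.25). All 11 genes of the mature neutrophil list rose at 150 and at 600 cGy, with medians of 1.57 and 2.13. In the dose-time set, by contrast, Csf3r at 100 and 200 cGy overlapped undosed mice at 6 hr. These doses differ from 150 cGy and the sets were not compared in a test.

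**Figure D4:**
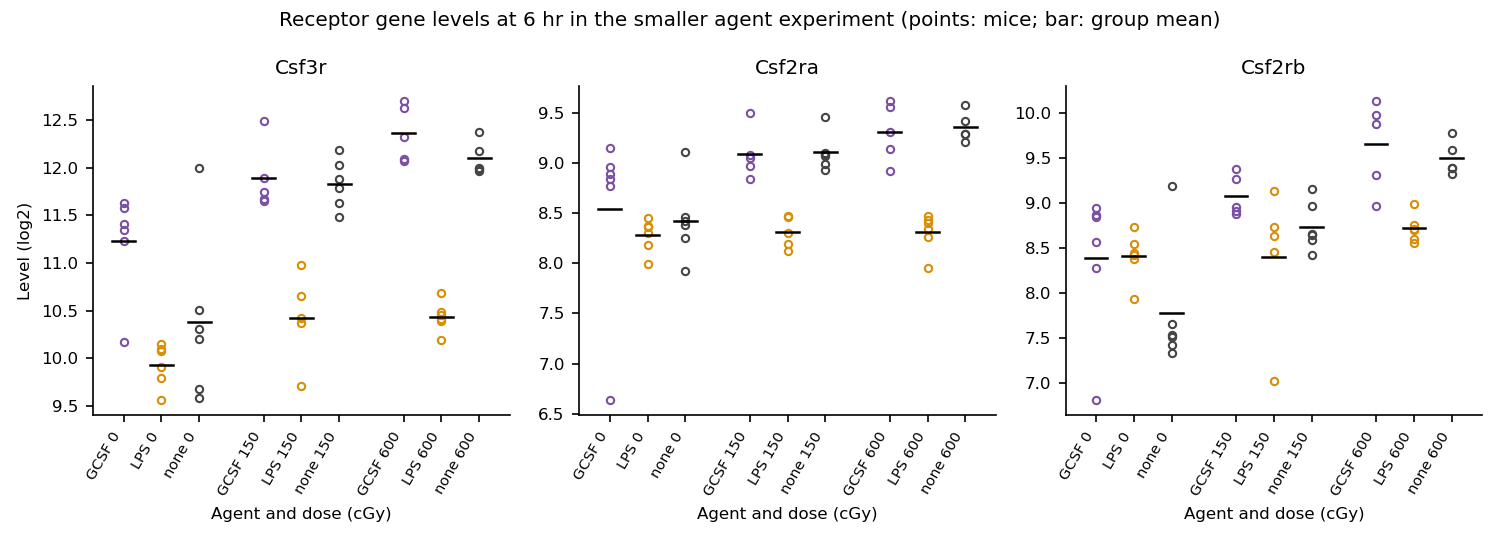
Level (log2 signal, vertical axis) of the 3 members at 6 hr in the small treatment set, with GCSF, LPS and no agent side by side at 0, 150 and 600 cGy (horizontal axis). Points are mice, 5 or 6 in each group, and bars are means. At 600 cGy every LPS mouse lies below every mouse without agent in all 3 members, and at 0 cGy 1 mouse without agent stands high and 1 with GCSF low.

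GCSF alone at 0 cGy gave Csf3r at 11.58, 11.35, 10.17, 11.40, 11.23 and 11.63, against 10.51, 9.67, 10.31, 9.58, 10.20 and 11.99 without it. The difference of 0.85 ± 0.24 was not called (limma adjusted p = 0.0947), nor were those of Csf2ra (0.12, 0.847) and Csf2rb (0.61, 0.314), beside 0.549% of all genes. It turned on 1 mouse of either group: without the high undosed mouse it was 1.17 (adjusted p = 1.43e-04) and without the low GCSF mouse 1.06 (0.0164), both called. Under GCSF 5 of 11 genes of the mature neutrophil list rose, and Socs3 rose by 1.72 ± 0.31. On top of 150 or 600 cGy GCSF added nothing called to any member, with Csf3r differing by 0.06 and 0.26, beside 0.0726% and 0.258% of all genes. With GCSF in both arms 600 cGy still raised all 3, by 1.14 ± 0.25 for Csf3r, 0.77 ± 0.23 for Csf2ra and 1.27 ± 0.29 for Csf2rb (limma adjusted p = 6.36e-04, 0.011 and 9.70e-04), beside 25% of all genes. Without the low GCSF mouse the difference of Csf2ra was 0.38 and still called (0.0404), and with only the groups compared in the fit it was not (0.77, 0.197).

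With LPS in both arms no member differed between 600 and 0 cGy past the threshold. The 600 minus 0 cGy differences were 0.51, 0.03 and 0.31 and 0 of 3 were called (limma adjusted p = 0.162, 0.951 and 0.535), beside 16% of all genes. With only the groups compared in the fit Csf3r was called (0.51, 0.00727), and whether the differences differ from those without agent was not tested here. Csf3r at 600 cGy was at 10.41, 10.45, 10.19, 10.40, 10.68 and 10.48 with LPS, all below the 5 mice without agent given above. The LPS minus none differences at 600 cGy were -1.66 for Csf3r, -1.04 for Csf2ra and -0.78 for Csf2rb (1.02e-06, 3.66e-04 and 0.0281), 3 of 3 called beside 47.5% of all genes. That of Csf2rb was not called after quantile normalisation (-0.53, 0.143) or without mouse 1 or 5 of each group (0.119 and 0.0665), and with the spread of each array as a covariate neither Csf2rb (-0.40, 0.411) nor Csf2ra (-0.60, 0.0541) was. At 150 cGy they were -1.41, -0.80 and -0.34, the first and second called (3.33e-05 and 0.0091, with 0.413 for Csf2rb), beside 23.6% of all genes. With the array spread as a covariate Csf2ra was at -0.51 (0.0846). At 0 cGy they were -0.45, -0.15 and 0.63 and 0 of 3 were called (0.175, 0.671 and 0.0903), beside 26.2% of all genes. Without the high undosed mouse Csf2rb was called at 0 cGy (0.92, 0.00635), as it was without the low GCSF mouse (0.63, 0.0412).

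In this set the mean of the neutrophil markers was nearly level between LPS and no agent at 600 cGy, unlike in the males of the sex-treatment set. The mature neutrophil mean at 600 cGy was 10.74 (10.28 to 11.17) with LPS, against 10.83 (10.52 to 11.16) without agent, and 3 of 11 genes of the list rose while 4 fell. The monocyte list had 3 of 11 risen and 6 fallen, with Csf1r lower by 1.94 on the log2 scale (-1.94 ± 0.20). Csf3 rose by 3.04 ± 0.32, Socs1 by 2.10 ± 0.22 and Cish by 1.66 ± 0.14, while Cebpa fell by 1.72 and Cebpd by 1.60. The tissue macrophage list had 6 of 9 fallen.

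In the small 7 day set, 150 cGy gave no called change at 168 hr in any member. Csf3r ranged from 9.47 to 11.70 with a median of 10.34 in the 10 mice given 150 cGy, against 10.32, 10.06 and 9.30 in undosed mice. The differences were 0.46 ± 0.31 for Csf3r, -0.33 ± 0.27 for Csf2ra and 0.04 ± 0.39 for Csf2rb (SE, limma adjusted p = 0.202, 0.29 and 0.938), 0 of 3 beside 67.1% of all genes called. The values turned on the scaling of the arrays: with the spread of each array as a covariate they were 1.32, 0.81 and 1.35 and all were called (0.013, 0.00274 and 0.0165), that of Csf2ra with its sign turned, and after quantile normalisation Csf3r was at 0.95 (0.00541). Of the hepatocyte list 6 of 10 rose in these mice and of the erythroid list 7 of 7, while 7 of 7 B cell genes fell.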

How the data were processed

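Blood from 534 mice was collected into PAXgene tubes and, after globin reduction, hybridised to Affymetrix 430A 2.0 arrays, per the labels' protocols. The authors deposited log2 expression values, made with RMA in affy per the submitters' processing notes, which do not say whether batches were normalised together. Of 22690 probe sets, 64 controls, 1555 without a symbol and 691 with several were left out, and 20380 gave 12393 genes, each by its probe set of highest mean. Of their Entrez IDs 29 matched no RefSeq entry. Repeat scans of 2 mice were averaged. No values were filtered.

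Within each set, limma 3.58.1 (R 4.3.3) fitted group means with eBayes (residual df 192, 178, 41 and 14), with Benjamini-Hochberg adjustment over all genes and a threshold of 0.05. In the sex-treatment set limma effects were averaged over the sexes unless stated. The permutation tests there took mice of both sexes together without regard to sex, so their differences are not such averages. At 0 cGy and 6 hr the mice with LPS were 5 males and 3 females, against 5 and 5 without agent. Exact tests used scipy 1.17.1. Scripts were tested on simulated data. Values were tested only within a set. The members and gene lists were chosen with earlier results of these data known. Named beside the members were their partner chains and ligands, up to 4 genes of each pathway list with the smallest p in a comparison, the 5 genes most like each member, and Alb and S100a8. A list's mean is the mean log2 level of its measured genes. Alternatives covered normalisation, probe sets, dim genes, the prior, the dose scale, blocks, Alb, the sexes and leaving out mice. Mouse 1 to 5 of a group, where left out in turn, names a place ordered by array run and then labelled number. Later places of larger groups were not left out in turn.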

Additional observations from a re-analysis of the deposited data

Results flagged for a closer look

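Within the groups of 4 to 10 mice, 25 of 309 group and gene combinations held 1 mouse far from the others, where chance gives about 1 in 20. For Csf3r these were a high undosed mouse at 24 hr (10.12), a high mouse at 800 cGy and 24 hr (11.02), a high mouse at 100 cGy and 48 hr (11.57), a low female with LPS at 200 cGy and 24 hr (10.54), a low female without agent at 300 cGy and 24 hr (10.23), a high mouse at 150 cGy in the small 7 day set (11.70), and in the small treatment set a low GCSF mouse at 0 cGy (10.17) and a high GCSF mouse at 150 cGy (12.49). For Csf2ra they were a low mouse at 450 cGy and 6 hr (7.89), a low mouse at 1050 cGy and 72 hr (9.001), a low female with GCSF at 200 cGy and 6 hr (8.06), a low male with GCSF at 600 cGy and 24 hr (7.17), a high male without dose or agent at 24 hr (8.08), the low GCSF mouse of the small treatment set (6.64) and a high mouse without agent at 150 cGy there (9.46). For Csf2rb they were a high undosed mouse at 6 hr (7.14), a high mouse at 450 cGy and 6 hr (8.79), a low mouse at 300 cGy and 120 hr (6.77), a low female with GCSF at 200 cGy and 6 hr (8.78), low females with LPS at 200 and 600 cGy and 24 hr (8.40 and 6.16), low females without dose or agent at 6 and 24 hr (7.41 and 6.25), the low GCSF mouse of the small treatment set (6.82) and the high untreated mouse there (9.19).

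The low GCSF mouse of the small treatment set stood below its group in all 3 members. The low undosed female at 6 hr in the sex-treatment set is 1 of the 2 mice labelled female with low Xist.

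The dose trend differed from that at 6 hr, by limma's test of the difference, for Csf3r at 24, 72, 120 and 168 hr (-0.247, -0.138, -0.268 and -0.230 per 100 cGy), for Csf2ra at 24, 48, 72, 120 and 168 hr (-0.126, 0.089, 0.098, 0.073 and 0.050) and for Csf2rb at 24 and 168 hr (-0.187 and -0.087). The dose trend without agent at 6 hr differed between males and females, by 0.378 for Csf3r, 0.293 for Csf2ra and 0.485 for Csf2rb.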

How the results depend on the processing

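The array run as a block left the call and direction of 69 of 69 results as they were, leaving out dim genes 102 of 102, centring each array on its median 102 of 102, a trended and robust prior 102 of 102 and the first scan alone 39 of 39. Leaving out 800 cGy, the 0 to 450 cGy range, single sexes, the 4 mice against their labels and the 2 mice that stood apart in the small set were alternatives chosen after seeing the data. The cause of each change below was not tested. After quantile normalisation, the trend at 72 hr of Csf3r (0.036), the LPS minus none trend at 6 hr of Csf3r (-0.154), the LPS minus none trend at 24 hr of Csf3r (-0.144) and male minus female at 0 cGy and 6 hr of Csf2rb (-0.75) no longer passed. Under it, LPS minus none at 600 cGy in the small set of Csf2rb (-0.53) no longer passed. There too, the trend at 168 hr of Csf3r (-0.086), LPS minus none at 6 hr of Csf2rb (0.71) and Csf2ra minus Csf3r (0.83), GCSF minus none at 24 hr of Csf3r (0.99) and the trend with GCSF at 6 hr of Csf2ra (0.098) now passed. In the same fit, the trend with LPS at 24 hr of Csf3r (0.128), LPS minus none at 0 cGy in the small set of Csf2rb (0.80), 150 minus 0 cGy without agent in the small set of Csf2ra (0.70) and 150 minus 0 cGy at 168 hr in the small 7 day set of Csf3r (0.95) now passed. With this choice, 600 minus 0 cGy at 6 hr of Csf2rb minus Csf3r (0.48) now passed. With the spread of each array as a covariate, the trend at 120 hr of Csf3r (-0.050), the trend with LPS at 6 hr of Csf3r (-0.107), male minus female at 0 cGy and 6 hr of Csf2rb (-0.29) and LPS minus none at 150 cGy in the small set of Csf2ra (-0.51) no longer passed. Under it, LPS minus none at 600 cGy in the small set of Csf2ra (-0.60) and Csf2rb (-0.40) no longer passed. There too, the trend at 24 hr of Csf2rb (0.047), LPS minus none at 6 hr of Csf2ra (0.71) and Csf2rb (0.92), GCSF minus none at 24 hr of Csf3r (1.04), Csf2ra (0.71) and Csf2rb (1.05) and the trend without agent at 6 hr of Csf2ra (0.080) now passed. In the same fit, the trend with GCSF at 6 hr of Csf2ra (0.144), the trend with LPS at 24 hr of Csf3r (0.137), GCSF minus none at 0 cGy in the small set of Csf3r (0.79) and LPS minus none at 0 cGy in the small set of Csf2rb (0.82) now passed. With this choice, 150 minus 0 cGy without agent in the small set of Csf2ra (0.62) and 150 minus 0 cGy at 168 hr in the small 7 day set of Csf3r (1.32) and Csf2rb (1.35) now passed. Under it, 150 minus 0 cGy at 168 hr in the small 7 day set of Csf2ra (0.81) turned sign. With probe sets averaged by gene, 600 minus 0 cGy without agent in the small set of Csf2ra (0.40) and 600 minus 0 cGy at 120 hr of Csf2ra minus Csf3r (0.42) no longer passed. There too, the trend with GCSF at 6 hr of Csf2ra (0.057), 600 minus 0 cGy at 48 hr of Csf2ra minus Csf3r (-1.73) and Csf2rb minus Csf2ra (1.15), LPS minus none at 6 hr of Csf2ra minus Csf3r (0.83) and 600 minus 0 cGy at 120 hr of Csf2rb minus Csf2ra (0.72) now passed. In the same fit, 600 minus 0 cGy at 72 hr of Csf2rb minus Csf2ra (0.85) and 600 minus 0 cGy at 168 hr of Csf2rb minus Csf2ra (0.39) turned sign. With only the groups compared in the fit, the LPS minus none trend at 24 hr of Csf3r (-0.178), 150 minus 0 cGy without agent in the small set of Csf3r (1.46) and Csf2rb (0.96) and 600 minus 0 cGy with GCSF in the small set of Csf2ra (0.77) no longer passed. With this choice, LPS minus none at 6 hr of Csf3r (-0.67), GCSF minus none at 24 hr of Csf3r (0.78), Csf2ra (0.38) and Csf2rb (0.73) and 600 minus 0 cGy with LPS in the small set of Csf3r (0.51) now passed. With the mouse number as a replicate block, GCSF minus none at 0 cGy in the small set of Csf3r (1.16), LPS minus none at 0 cGy in the small set of Csf2rb (0.87), 150 minus 0 cGy without agent in the small set of Csf2ra (0.85) and 600 minus 0 cGy with LPS in the small set of Csf3r (0.63) now passed. Without the mice whose Alb was 10 or more, the LPS minus none trend at 6 hr of Csf3r (-0.171) and Csf2rb (-0.230), male minus female at 0 cGy and 6 hr of Csf2rb (-1.04), LPS minus none at 6 hr of Csf2rb minus Csf3r (0.73) and 600 minus 0 cGy at 6 hr of Csf2ra minus Csf3r (-1.01) and Csf2rb minus Csf2ra (1.03) no longer passed. Under it, GCSF minus none at 24 hr of Csf2ra minus Csf3r (-0.50) and Csf2rb minus Csf2ra (0.38) and LPS minus none at 24 hr of Csf2rb minus Csf2ra (0.34) no longer passed. There too, LPS minus none at 6 hr of Csf3r (-0.91), the trend with LPS at 24 hr of Csf3r (0.134), LPS minus none at 0 cGy in the small set of Csf2rb (0.94) and 150 minus 0 cGy without agent in the small set of Csf2ra (0.92) now passed. In males alone, the trend with GCSF at 6 hr of Csf3r (0.117) and Csf2rb (0.158), the trend without agent at 24 hr of Csf2rb (0.1503), the trend with GCSF at 24 hr of Csf2ra (0.047) and Csf2rb (0.122) and the LPS minus none trend at 24 hr of Csf3r (-0.138) and Csf2ra (-0.071) no longer passed. In the same fit, GCSF minus none at 24 hr of Csf2ra minus Csf3r (-0.25) no longer passed. With this choice, the trend without agent at 6 hr of Csf3r (0.230), Csf2ra (0.182) and Csf2rb (0.282) and GCSF minus none at 6 hr of Csf2rb minus Csf2ra (0.63) now passed. In females alone, LPS minus none at 24 hr of Csf3r (0.27), Csf2ra (0.99) and Csf2rb minus Csf2ra (0.29), the trend with GCSF at 6 hr of Csf2rb (0.120), the trend with LPS at 6 hr of Csf3r (-0.176) and the LPS minus none trend at 6 hr of Csf3r (-0.027), Csf2ra (-0.180) and Csf2rb (-0.149) no longer passed. Under it, the LPS minus none trend at 24 hr of Csf3r (-0.218), LPS minus none at 6 hr of Csf2rb minus Csf3r (1.35) and GCSF minus none at 24 hr of Csf2ra minus Csf3r (-0.56) and Csf2rb minus Csf2ra (0.25) no longer passed. There too, the GCSF minus none trend at 6 hr of Csf3r (0.453) now passed. In the same fit, the trend without agent at 6 hr of Csf2rb (-0.203) turned sign. Over 0 to 450 cGy, the trend at 168 hr of Csf3r (-0.141) now passed. With this choice, the trend at 24 hr of Csf3r (0.190), the trend at 120 hr of Csf3r (0.102) and the trend at 168 hr of Csf2ra (-0.151) and Csf2rb (-0.113) turned sign. With dose on a log2 scale, the trend at 120 hr of Csf3r (-0.115) and the LPS minus none trend at 24 hr of Csf3r (-0.288) no longer passed. Under it, the trend with LPS at 24 hr of Csf3r (0.314) now passed. Without the 800 cGy mice, the trend at 24 hr of Csf2rb (0.057) now passed. By the F test over all doses, the trend at 24 hr of Csf3r (adjusted p = 2.48e-07), Csf2ra (adjusted p = 0.00173) and Csf2rb (adjusted p = 0.00236) and the trend at 168 hr of Csf3r (adjusted p = 0.0128) now passed. Without the 4 mice against their labels, LPS minus none at 6 hr of Csf3r (-0.81) now passed. Without the high undosed mouse of the small set, GCSF minus none at 0 cGy in the small set of Csf3r (1.17), LPS minus none at 0 cGy in the small set of Csf2rb (0.92) and 150 minus 0 cGy without agent in the small set of Csf2ra (0.82) now passed. Without the low GCSF mouse of that set, GCSF minus none at 0 cGy in the small set of Csf3r (1.06), LPS minus none at 0 cGy in the small set of Csf2rb (0.63) and 150 minus 0 cGy without agent in the small set of Csf2ra (0.68) now passed. Mice of the same number did not deviate together on average (mean correlation of residuals 0.02, 0.04, 0.06 and -0.13 in the dose-time, sex-treatment, small treatment and small 7 day sets). The lowest single correlations were -0.83, -0.80, -0.47 and -0.61, and a mean cannot show that the numbers pair no mice. The block kept 98 of 102 results, and those that changed were all in the small treatment set. At 6 hr no mouse of the dose-time groups compared had Alb of 10 or more, so the unequal responses there kept their values and lost the threshold through the adjustment over the tests that were left. The tests of unequal response carry no test with 1 mouse left out, since 4 against 4 allow no exact p under 0.0286. Trends at 120 and 168 hr could not be fitted without the mice whose Alb was 10 or more, as no mouse from 450 cGy up was left. With 1 mouse number at a time left out, the trend at 120 hr gave -0.060 to -0.047 for Csf3r, LPS minus none at 6 hr gave -1.08 to -0.48 for Csf3r, the trend with GCSF at 6 hr gave 0.119 to 0.178 for Csf2rb and the trend with LPS at 6 hr gave -0.200 to -0.142 for Csf3r. In the same way, the trend with GCSF at 24 hr gave 0.098 to 0.131 for Csf2ra, the LPS minus none trend at 6 hr gave -0.253 to -0.156 for Csf3r, -0.327 to -0.240 for Csf2ra and -0.363 to -0.218 for Csf2rb, the LPS minus none trend at 24 hr gave -0.191 to -0.154 for Csf3r and -0.228 to -0.141 for Csf2ra and male minus female at 0 cGy and 6 hr gave -1.37 to -0.86 for Csf2rb. In the same way, LPS minus none at 600 cGy in the small set gave -0.87 to -0.67 for Csf2rb, 150 minus 0 cGy without agent in the small set gave 0.79 to 0.95 for Csf2rb and 0.51 to 0.73 for Csf2ra, 600 minus 0 cGy without agent in the small set gave 0.87 to 0.96 for Csf2ra and 600 minus 0 cGy at 120 hr gave 0.97 to 1.28 for Csf2ra minus Csf3r and 1.03 to 1.31 for Csf2rb minus Csf3r. In the same way, 600 minus 0 cGy at 48 hr gave -1.06 to -0.67 for Csf2ra minus Csf3r and 600 minus 0 cGy at 168 hr gave 0.037 to 0.64 for Csf2ra minus Csf3r. Genes called, with the lowest and highest count over the alternatives, numbered 4301 (2801 to 5941) for the trend at 6 hr, 4798 (1981 to 6069) for the trend at 24 hr, 10208 (4357 to 10359) for the trend at 120 hr, 0 (0 to 4) for GCSF minus none at 6 hr and 4368 (1739 to 5726) for LPS minus none at 6 hr. They numbered 68 (7 to 2874) for GCSF minus none at 24 hr, 2708 (1721 to 3736) for LPS minus none at 24 hr, 2470 (683 to 4945) for the trend without agent at 6 hr, 6521 (877 to 7458) for the trend with GCSF at 6 hr and 3985 (1545 to 4472) for the trend with LPS at 6 hr. They numbered 5108 (3190 to 6300) for the trend without agent at 24 hr, 3789 (1727 to 5151) for the trend with GCSF at 24 hr, 1617 (778 to 2294) for the trend with LPS at 24 hr, 2 (0 to 220) for the GCSF minus none trend at 6 hr and 799 (179 to 1784) for the LPS minus none trend at 6 hr. They numbered 1 (0 to 33) for the GCSF minus none trend at 24 hr, 2051 (1006 to 3310) for the LPS minus none trend at 24 hr, 3446 (1103 to 5921) for male minus female at 0 cGy and 6 hr, 9 (1 to 34) for male minus female at 0 cGy and 24 hr and 68 (2 to 613) for GCSF minus none at 0 cGy in the small set. They numbered 9 (0 to 16) for GCSF minus none at 150 cGy in the small set, 32 (3 to 127) for GCSF minus none at 600 cGy in the small set, 2919 (1923 to 3340) for LPS minus none at 150 cGy in the small set, 5881 (3084 to 6809) for LPS minus none at 600 cGy in the small set and 475 (0 to 1440) for 150 minus 0 cGy without agent in the small set. They numbered 914 (417 to 1666) for 600 minus 0 cGy without agent in the small set, 1983 (1182 to 2558) for 600 minus 0 cGy with LPS in the small set and 8314 (3410 to 8559) for 150 minus 0 cGy at 168 hr in the small 7 day set.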

Other observations

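Lists of other blood cells also had called dose trends, beside the shares of all genes given with the marker lists above. Of the B cell list 7 of 7 measured genes fell at all 6 times, and of the T cell list 7 or 8 of 8 fell at each time. The erythroid list had 0 of 7 fallen at 6 and 24 hr and 7 of 7 fallen from 48 hr on. Of the eosinophil, basophil and mast cell list, whose cells also carry the GM-CSF receptor chains and Il5ra, 0 of 10 were risen and 2 fallen at 6 hr. At 120 hr 2 were risen and 6 fallen, when 47% of all genes fell, and at 168 hr 1 was risen and 6 fallen, when 46.6% of all genes fell. Of the immature granule genes of neutrophil precursors, 8 of 9 were measured, with 2 risen and 0 fallen at 6 hr and 1 risen and 6 fallen at 120 and at 168 hr.

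Each array run of the dose-time set held 1 mouse of every group, so a difference can be read within a run. Within the 5 runs Csf3r differed between 600 and 0 cGy at 48 hr by 1.17 to 3.08, higher in 5 of 5 runs, and at 120 hr by -0.63 to 0.39, higher in 2 of 5. Between 1050 and 0 cGy at 120 hr the differences of Csf3r were -1.06 to -0.54, lower in 5 of 5.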
